A study of Arabidopsis thaliana with 4 samples.

Results

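The genes described here are the Arabidopsis genes whose locus numbers fall in the stretch of each chromosome that surrounds the centromere. A gene was a member when its number lay in that stretch and its normalized signal averaged 20 or more over the 4 libraries, which gave 373 members of 32548 genes in the table. Another 1524 genes are numbered in the same stretches and averaged under 20. A further 6 genes that averaged 20 or more are left out by the definition itself: RPA1A, MCM5, CHR38, TES, DCL3 and ATK5. At the edge of the definition AT2G07698, WVD2 and AT4G05430, at mean signals of 19.1, 19.2 and 19.9, lay just outside, and AT1G38065, AT4G07526 and AT4G07855, at 20.02, 20.1 and 20.4, just inside.

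The series holds mRNA sequencing of whole Arabidopsis thaliana seedlings aged 2 weeks, in 2 genotypes with 2 libraries each. The first genotype is labelled cmt3-/-, a mutant of CMT3, the chromomethylase that maintains CHG methylation, and serves as the control. The second is labelled tcx5-/- tcx6-/- cmt3-/- and so shares the cmt3 mutation with the control. TCX5 and TCX6 are CXC-domain DNA-binding proteins of the DREAM complex, which represses cell cycle genes. The mutant alleles and the Arabidopsis accession are not named in the labels, and no wild-type sample was analysed here.

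In Arabidopsis the chromatin around each centromere is dense with transposons and pseudogenes, carries DNA methylation in CG, CHG and CHH contexts together with histone H3 lysine 9 methylation, and holds few active genes. CMT3 and H3 lysine 9 methylation reinforce each other there. Active genes in this chromatin lie as islands among silenced repeats, and some of them, such as the orphan gene QQS, are known to vary in expression with the methylation of nearby repeats.

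The labels of the genotypes were checked against the mutated genes. TCX5 (AT4G29000) was at 730 and 676 in the cmt3 libraries and at 250.6 and 249 in the other genotype (limma adjusted p = 0.00121), whereas TCX6 (AT2G20110) was at 198 and 180 against 919 and 1034 (limma adjusted p = 0.00044) and so went against its label. CMT3 was at 822 and 662 in cmt3 against 1289 and 1343 in the second genotype (limma adjusted p = 0.00985). The second genotype is therefore named by its label, tcx5/6;cmt3, and higher and lower below mean higher and lower in the libraries that carry it. Column totals ranged from 38260000 to 41110000, and the reads behind them are unknown. The labels do not say whether replicates came from separate batches of plants, and the p-values reflect the spread among these 4 libraries alone, part of which may be technical. For a single gene an exact permutation test of 2 libraries against 2 cannot go below p = 0.333 (two-sided), so the tests are those of limma, fitted across all 23666 genes that passed a filter on low values. The summed signal of 5 leaf markers was 959772 to 1203329 in cmt3 and 1019691 to 1054441 in the tcx5/6;cmt3-labelled libraries. That of 5 flower markers was 307 to 324 against 729 to 1041, and that of 5 pollen markers 516 to 530 against 1087 to 1183, with the pollen markers ANX2 and SKS14 at 0 in all 4 libraries. SEP3 made up most of the flower sum, at 283 and 259 against 960 and 668. In the pollen sum the difference was that of AACT1 alone, counted here as a pollen marker, at 216 and 132 against 797 and 772. The genotypes overlapped for ANX1, at 275 and 276 against 307 and 243, and for PPA3, at 39.4 and 109 against 79.2 and 71.5. The 5 root markers summed to 2218 to 4158 and 2087 to 2526, and the 5 seed markers to 16.4 to 56.5 and 14.7 to 23.6. The part of these organ markers in the results was not tested. Fewer cells of a type and less RNA per cell cannot be told apart in such whole-seedling libraries.

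Locus numbers are mostly, but not always, in chromosomal order, so the name pericentromeric was checked against the TAIR10.1 annotation. On each chromosome a block was drawn from the first to the last protein-coding member, so those members lie inside it by construction. The blocks ran from base 13450089 to 16689563 on chromosome 1, 2327253 to 5864614 on chromosome 2 and 11810726 to 15779360 on chromosome 3. On chromosomes 4 and 5 they ran from base 1931883 to 4843814 and from 10024623 to 13238884. Each block spanned 2.91 to 3.97 Mb. Pseudogenes made up 59.8% to 74.1% of the annotated loci inside the blocks and 5.40% to 8.32% of those outside, and protein-coding genes stood at 40.8 to 82.8 per Mb inside against 249 to 270 per Mb outside. The blocks held 346 of the 373 members. The other 27, 16 numbered on chromosome 2 and 11 on chromosome 4, are non-coding RNA genes whose recent numbers follow no order and which lay up to 13.1 Mb from the block of their chromosome. For those 27 the positional name does not hold, and counts are given with and without them. Surroundings vary inside the blocks too: pseudogenes made up under 25% of the annotated loci within 100 kb of 52 of the 346 members there, 51 of them on chromosome 4, so for these the name gives position alone. Of all members 338 are protein-coding and 35 are non-coding.

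Of the pericentromeric genes 331 did not pass the test between genotypes, and those that passed were more often lower than higher in the tcx5/6;cmt3-labelled libraries. Of the 373 members, all of which were tested, 42 (11.3%) were called at a limma adjusted p under 0.05, against 8.47% of all genes tested. Higher calls numbered 16 (4.29%), where 6.15% of all tested genes were called higher. Lower calls numbered 26 (6.97%), where 2.32% of all tested genes were called lower. On the log2(signal + 1) scale 6 of the rises and 18 of the falls were 2-fold or larger. Libraries of one genotype lay entirely above or below those of the other for 222 members (59.5%), against 50.1% of all genes tested, and for all 42 called members.

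The median log2 fold change of the members was -0.06, with -0.02 for all genes tested, and the median absolute log2 fold change was 0.205, with 0.195 for all genes tested. Among the 19757 other genes with a mean of 20 or more, 7.16% were called higher and 2.51% lower. A member that reached the mean of 20 through 1 genotype alone was bound to have unequal means, so its direction is a description only. Of the 339 members at 20 or more in both genotypes, 13 (3.84%) were higher and 15 (4.43%) lower, where 6.81% and 2.40% of the 19354 other genes with that property were. The 21 members at 20 or more in cmt3 alone included 11 of the falls (52.4%), where 38 of 287 such other genes (13.2%) were lower. The 13 at 20 or more in the tcx5/6;cmt3 label alone included 3 of the rises (23.1%), where 112 of 339 such other genes (33.0%) were higher. Inside the blocks the members gave 15 higher and 25 lower calls. Adding the 6 genes left out, of which all but CHR38 were called higher, gave 21 higher and 26 lower.

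The calls depended on the libraries in the fit. With the same genes tested, 0 members passed the threshold without tcx5/6;cmt3 replicate 1 and 0 without replicate 2, with 48 and 45 members at an unadjusted p under 0.05, against 98 with all 4 libraries. When the filter on low values was set anew on the 3 libraries left, 25 and 24 members were called. Without cmt3 replicate 1 the same genes gave 11 higher and 16 lower members and the new filter 39 and 58, and without cmt3 replicate 2 they gave 14 and 20, and 39 and 63. In these fits the lone library is assumed to vary like the other genotype. The cmt3 pair differed 2-fold or more for 20 members and the tcx5/6;cmt3 pair for 13, against 43 to 46 for pairs across genotypes. limma without a trend of variance on level called 8 members higher and 10 lower, and 586 and 135 of all genes tested. In this fit and in those with a library left out, calls over all genes tested moved in the same direction as calls of members. The dependence on the fit is therefore not particular to the members.

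**Figure D1:**
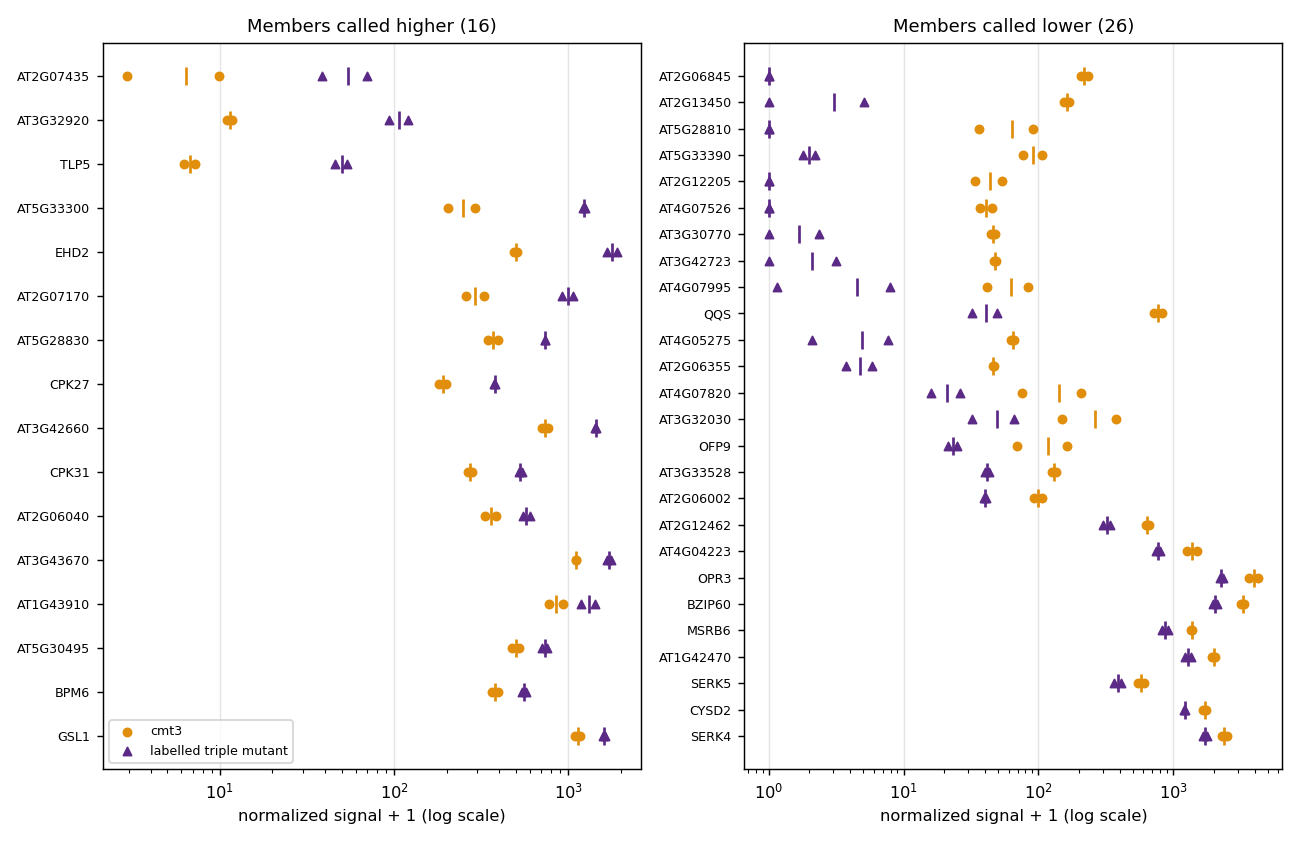
Normalized signal + 1 on a log axis in each library for the 16 members called higher (left) and the 26 called lower (right) in the tcx5/6;cmt3-labelled libraries. Orange circles are the 2 cmt3 libraries, purple triangles the 2 tcx5/6;cmt3-labelled libraries and vertical ticks the mean of each genotype, and in every gene shown the libraries of the genotypes do not overlap. The rises reach from GSL1, at a log2 fold change of 0.50, to AT2G07435, at 3.26, and the largest falls end at or near a signal of 0.

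With all 4 libraries, falls outnumbered or equalled rises among the members of every chromosome, while the other genes of every chromosome gave more rises than falls. The member counts include the 11 falls at 20 or more in cmt3 alone and the 3 rises at 20 or more in the tcx5/6;cmt3 label alone. The direction of those members was bound by the definition, so the balance by chromosome is a description only. On chromosome 5 the falls AT5G28810 and AT5G33390 were among them. Chromosome 2 had 9 lower and 3 higher of 83 members, 10.8% and 3.61%, where 3.45% and 6.43% of its other genes with a mean of 20 or more were. Chromosome 3 had 5 lower and 4 higher of 64 (7.81% and 6.25%, with 2.23% and 7.61% of its other genes). Chromosome 4 had 7 lower and 4 higher of 119 (5.88% and 3.36%, with 2.53% and 6.97%). Chromosome 5 had 3 of 51 in each direction (5.88%, with 2.02% lower and 7.27% higher of its other genes), and chromosome 1 had 2 of 56 in each direction (3.57%, with 2.60% lower and 7.25% higher). These counts are small, and differences between chromosomes were not tested. Rises outnumbered falls in the fit without a mean-variance trend on chromosome 1 (1 higher, 0 lower) and chromosome 4 (3 and 1), and on chromosome 3 with a pseudocount of 0.1 (4 and 3) and without cmt3 replicate 2 with the same genes tested (5 and 1). The median log2 fold changes of the members, -0.05, -0.06, -0.06, -0.06 and -0.04 for chromosomes 1 to 5 (all members of each chromosome), were all slightly below 0. On chromosome 1, 0 of the 56 members fell 2-fold or more, against 6 on chromosome 2, 5 each on chromosomes 3 and 4 and 2 on chromosome 5.

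**Figure D2:**
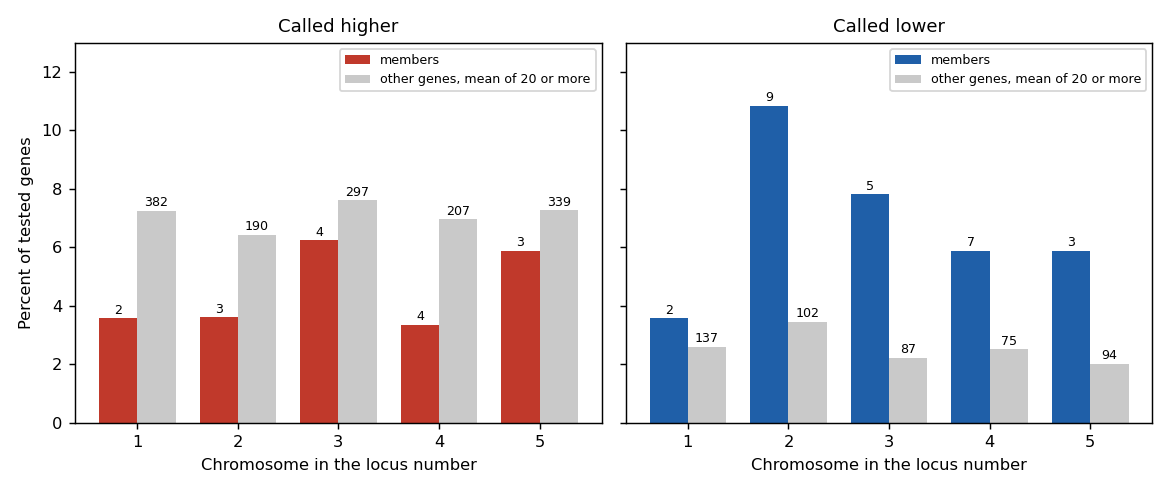
Percent of members (coloured bars) and of other genes of the same chromosome with a mean signal of 20 or more (grey bars) called higher (left) or lower (right) in the tcx5/6;cmt3-labelled libraries at a limma adjusted p under 0.05. The number over each bar counts the genes called, for example 9 of 83 members lower on chromosome 2. In these bars members were called higher less often, and lower more often, than the other genes of the same chromosome on all 5 chromosomes. The member bars include 11 falls and 3 rises whose direction was bound by the definition. The counts are small, and the bars are a description only.

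On chromosome 1 both falls were under 2-fold. BZIP60 (AT1G42990, bases 16135723 to 16137463, minus strand), the bZIP transcription factor of the endoplasmic reticulum stress response, was at 3313 and 3194 in cmt3 against 2118 and 1971 in the tcx5/6;cmt3-labelled libraries. It fell from 3254 ± 84.0 to 2045 ± 104 (SD, n = 2 each), with a log2 fold change of -0.67 and an SE of 0.08 (limma adjusted p = 0.00419), with both tcx5/6;cmt3-labelled libraries below both cmt3 libraries. AT1G42470, annotated as a Patched family protein, fell from 2034 and 1936 to 1226 and 1341 (log2 fold change -0.63; limma adjusted p = 0.00734). The rises were TLP5 and AT1G43910. TLP5 (AT1G43640), a tubby-like protein, was at 6.23 and 5.22 in cmt3 against 52.9 and 45.0 in the tcx5/6;cmt3-labelled libraries, with a log2 fold change of 2.89 and an SE of 0.45 (limma adjusted p = 0.0127). With values this low in cmt3, the added 1 understates the fold change. AT1G43910, a P-loop nucleoside triphosphate hydrolase, rose from 930 and 777 to 1427 and 1188 (log2 fold change 0.61; limma adjusted p = 0.0407) and overlaps AT1G43900 on the opposite strand.

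Chromosome 2 held 2 of the 4 members that were listed at 0 in each tcx5/6;cmt3-labelled library. AT2G06845, annotated as a beta-galactosidase related protein (bases 2753443 to 2756008, plus strand), was at 232 and 204 in cmt3 against 0 and 0 in the tcx5/6;cmt3-labelled libraries (limma adjusted p = 0.00056). It overlaps AT2G05015 on the opposite strand. AT2G12205, an uncharacterized gene of 129 exonic bases, was at 52.8 and 32.7 and listed at 0 in each tcx5/6;cmt3-labelled library (limma adjusted p = 0.00422). AT2G13450, annotated as a Ta11-like non-LTR retrotransposon, was at 154 and 168 in cmt3 against 4.13 and 0 in the tcx5/6;cmt3-labelled libraries (limma adjusted p = 0.00611). Of its gene body 83.1% has a near-identical copy elsewhere in the genome, so its value is uncertain. In all 3 genes both cmt3 libraries lay far above both tcx5/6;cmt3-labelled libraries.

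The other falls on chromosome 2 included genes of hormone synthesis and signalling. OPR3 (AT2G06050, bases 2359114 to 2362375, minus strand), the 12-oxophytodienoate reductase of jasmonate synthesis, was at 4238 and 3661 in cmt3 against 2329 and 2205 in the tcx5/6;cmt3-labelled libraries. It fell from 3949 ± 408 to 2267 ± 87.4 (SD, n = 2 each), with a log2 fold change of -0.80 and an SE of 0.10 (limma adjusted p = 0.00455). SERK4 and SERK5, neighbouring genes for receptor-like kinases of the family that acts as co-receptors in brassinosteroid and immune signalling, were both lower. SERK4 fell from 2489 and 2292 to 1649 and 1779 (log2 fold change -0.48; limma adjusted p = 0.02), and SERK5 from 542 and 604 to 364 and 409 (-0.57; limma adjusted p = 0.0495). SERK5 lay closest to the threshold of all called members. AT2G12462, a sterile alpha motif protein, fell from 655 and 625 to 340 and 299 (log2 fold change -1.002; limma adjusted p = 0.00579), and the non-coding RNA AT2G06002 from 105 and 91.0 to 38.3 and 39.6 (-1.30; limma adjusted p = 0.0469).

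The rises on chromosome 2 inside the block were AT2G07170 and AT2G06040. AT2G07170, an ARM repeat protein (bases 2975025 to 2979266, plus strand), was at 258 and 325 in cmt3 against 921 and 1066 in the tcx5/6;cmt3-labelled libraries, a rise from 292 ± 47.7 to 993 ± 102 (SD, n = 2 each) with a log2 fold change of 1.77 and an SE of 0.15 (limma adjusted p = 0.00142). It overlaps AT2G05095 on the opposite strand. AT2G06040, an F-box and leucine-rich repeat protein, rose from 385 and 333 to 545 and 601 (log2 fold change 0.67; limma adjusted p = 0.0309). AT2G06040 lies 3517 bp from OPR3, so 2 adjacent expressed genes moved in opposite directions. Outside the block, the long non-coding RNA AT2G07435 was at 1.95 and 8.88 in cmt3 against 37.3 and 68.7 in the tcx5/6;cmt3-labelled libraries (log2 fold change 3.26; limma adjusted p = 0.0427). AT2G06355, also a long non-coding RNA outside the block, was at 44.8 and 45.7 against 2.74 and 4.80 (-3.31; limma adjusted p = 0.0117). Both overlap another gene on the opposite strand. The next expressed gene beside AT2G06355, AT2G15042, which is no member, was at 303 and 335 in cmt3 against 44.2 and 39.4 in the tcx5/6;cmt3-labelled libraries.

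On chromosome 3 all 5 falls were 2-fold or larger, QQS among them. QQS (AT3G30720, bases 12349047 to 12349933, plus strand) encodes a small protein found in Arabidopsis thaliana alone that is known for an effect on leaf starch. It was at 829 and 714 in cmt3 against 31.0 and 48.3 in the tcx5/6;cmt3-labelled libraries, so both libraries of the latter lay far below both of the former. Its mean fell from 771 ± 81.2 to 39.6 ± 12.2 (SD, n = 2 each), with a log2 fold change of -4.28 and an SE of 0.26 (limma adjusted p = 0.00055). AT3G30770, an aspartyl protease on the same side of the block, was at 43.1 and 46.5 in cmt3 against 1.37 and 0 in the tcx5/6;cmt3-labelled libraries (limma adjusted p = 0.00734). AT3G42723, annotated as an aminoacyl-tRNA ligase, was at 45.5 and 47.4 against 0 and 2.16 (limma adjusted p = 0.0112). AT3G32030, a terpenoid cyclase family gene, fell from 148 and 377 to 64.7 and 31.2 (log2 fold change -2.37; limma adjusted p = 0.0462), with a wide spread within cmt3 and a copy of 88.5% of its gene body elsewhere. The uncharacterized AT3G33528 fell from 124 and 133 to 41.6 and 39.2 (-1.65; limma adjusted p = 0.0153).

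Chromosome 3 gave 4 rises, of which AT3G32920 was the largest in fold. AT3G32920, a P-loop nucleoside triphosphate hydrolase, was at 9.99 and 10.8 in cmt3 against 92.8 and 119 in the tcx5/6;cmt3-labelled libraries, with a log2 fold change of 3.22 and an SE of 0.37 (limma adjusted p = 0.00404). It overlaps AT3G32925 on the same strand. AT3G42660, a WD-40 repeat protein (bases 14751280 to 14755701, plus strand), was at 758 and 704 in cmt3 against 1448 and 1417 in the tcx5/6;cmt3-labelled libraries, a rise from 731 ± 38.2 to 1432 ± 22.3 (SD, n = 2 each) with a log2 fold change of 0.97 and an SE of 0.09 (limma adjusted p = 0.00176). The copper amine oxidase AT3G43670 rose from 1108 and 1107 to 1765 and 1656 (log2 fold change 0.63; limma adjusted p = 0.00614). BPM6, a BTB-MATH protein of the family that brings targets to cullin ubiquitin ligases, rose from 365 and 394 to 571 and 538 (0.55; limma adjusted p = 0.0439).

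Chromosome 4 had the most members, and its 7 falls lay near both ends of the block and between them. The uncharacterized AT4G07526 was at 36.0 and 44.3 in cmt3 and listed at 0 in each tcx5/6;cmt3-labelled library (limma adjusted p = 0.00392). The long non-coding RNA AT4G05275 fell from 65.1 and 62.1 to 6.69 and 1.09 (log2 fold change -4.01; limma adjusted p = 0.0188), and AT4G07995 was at 83.0 and 40.3 against 6.87 and 0.144 (-4.30; limma adjusted p = 0.047). AT4G07820, a member of the CAP family of cysteine-rich secretory proteins, fell from 74.9 and 205 to 25.02 and 15.1 (-2.61; limma adjusted p = 0.0365). OFP9, an OVATE family transcription repressor, was at 68.5 and 163 against 23.7 and 20.4 (-2.21; limma adjusted p = 0.0392), and 99.4% of its gene body has a near-identical copy. The non-coding RNA AT4G04223, copied in full elsewhere, was at 1264 and 1500 against 742 and 801 (-0.84; limma adjusted p = 0.00705). MSRB6, a methionine sulfoxide reductase, fell from 1382 and 1355 to 827 and 905 (-0.66; limma adjusted p = 0.00734).

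Of the 4 rises on chromosome 4 EHD2 was the largest in fold. EHD2 (AT4G05520, bases 2804403 to 2808015, plus strand), an EPS15 homology domain protein of endocytosis, was at 489 and 509 in cmt3 against 1895 and 1673 in the tcx5/6;cmt3-labelled libraries. It rose from 499 ± 14.4 to 1784 ± 157 (SD, n = 2 each), with a log2 fold change of 1.83 and an SE of 0.10 (limma adjusted p = 0.000423). GSL1, a callose synthase, rose from 1170 and 1087 to 1580 and 1614 (log2 fold change 0.50; limma adjusted p = 0.0154).

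The other rises on chromosome 4 were a pair of neighbours in a cluster of calcium-dependent protein kinases, enzymes that turn a calcium signal into phosphorylation. CPK31 (bases 2381348 to 2384121) was at 277 and 266 in cmt3 against 519 and 541 in the tcx5/6;cmt3-labelled libraries (log2 fold change 0.96; limma adjusted p = 0.00659). CPK27, 917 bp away, was at 181 and 197 against 374 and 378 (0.99; limma adjusted p = 0.012). CPK22, the next gene, was at 8.53 and 23.1 against 77.9 and 35.5, a log2 fold change of 1.83 ± 0.62 (SE) that did not pass (limma adjusted p = 0.159). CPK21 and CPK23 in the same cluster did not pass either, with log2 fold changes of -0.05 (limma adjusted p = 0.804) and 0.22 (0.179). Per kb of exon CPK21, at a mean of 908, was the highest of the 5 kinases, and CPK22, at 20.2, the lowest.

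On chromosome 5 AT5G28810, a Ulp1 protease family gene, was at 35.1 and 89.4 in cmt3 and listed at 0 in each tcx5/6;cmt3-labelled library (limma adjusted p = 0.00435). Ulp1 proteases cleave the SUMO protein, and in plants genes of this family are often carried by transposons. AT5G33390, a glycine-rich protein, fell from 76.4 and 105 to 1.21 and 0.802 (log2 fold change -5.50; limma adjusted p = 0.00189). CYSD2, a cysteine synthase, fell from 1752 and 1658 to 1203 and 1216 (-0.49; limma adjusted p = 0.0137). AT5G33300, annotated as a chromosome-associated kinesin-like protein (bases 12562426 to 12565780, minus strand), was at 203 and 292 in cmt3 against 1213 and 1238 in the tcx5/6;cmt3-labelled libraries. It rose from 247 ± 63.0 to 1225 ± 17.7 (SD, n = 2 each), with a log2 fold change of 2.33 and an SE of 0.18 (limma adjusted p = 0.000985). AT5G28830, an EF-hand calcium-binding protein, rose from 345 and 394 to 734 and 737 (log2 fold change 0.99; limma adjusted p = 0.00476) and lies 30015 bp from AT5G28810, which was lower. AT5G30495, an Fcf2 pre-rRNA processing protein, rose from 520 and 474 to 709 and 758 (0.56; limma adjusted p = 0.0296).

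**Figure D3:**
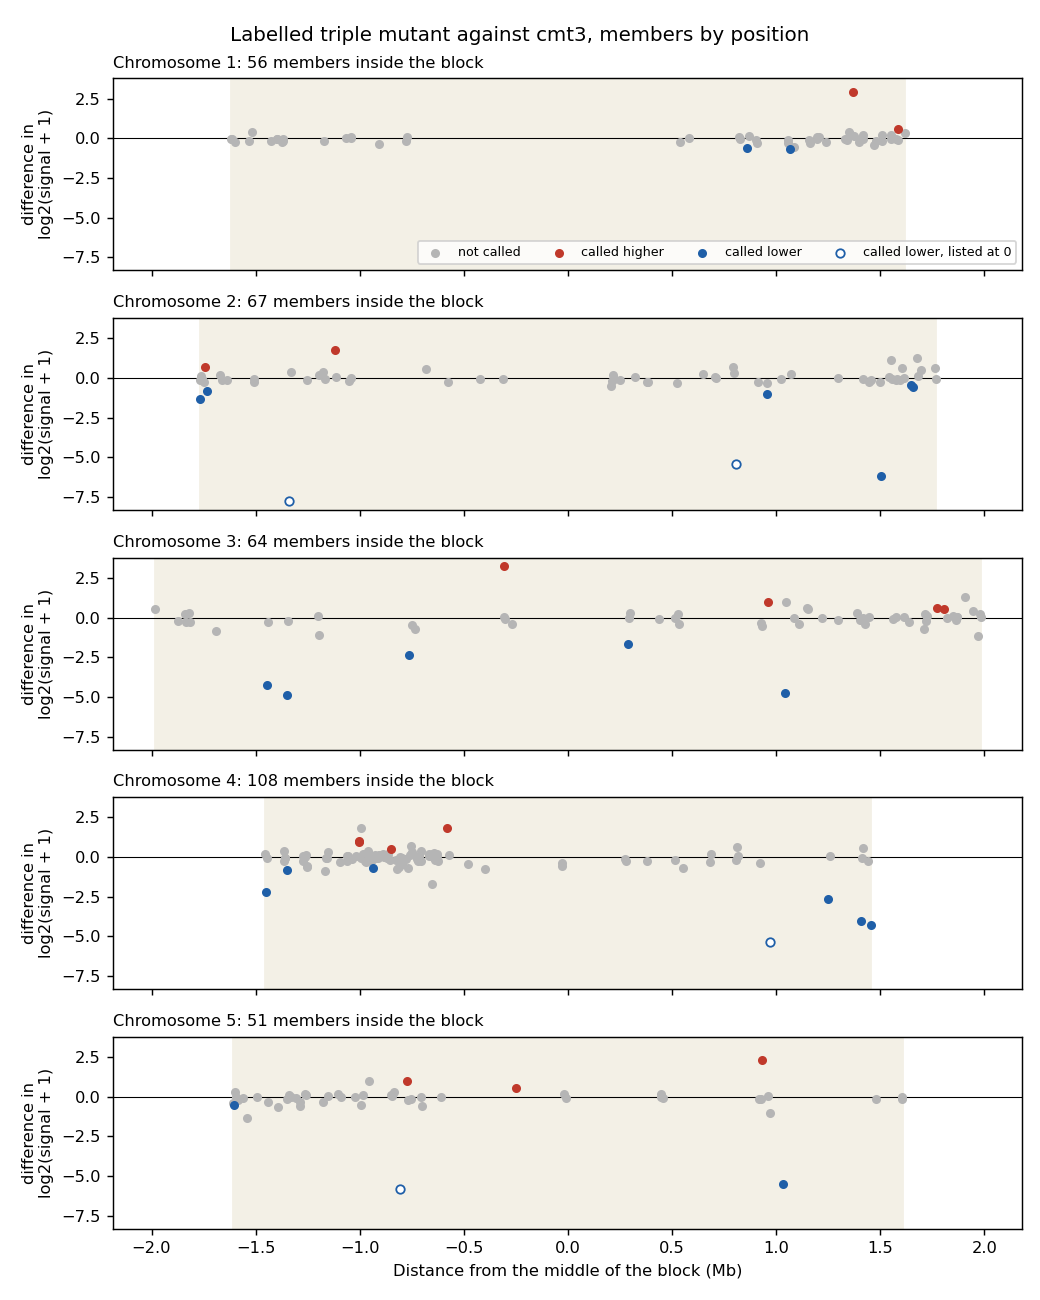
Difference in log2(signal + 1) between the tcx5/6;cmt3-labelled libraries and cmt3 for the 346 members inside the blocks, against distance in Mb from the middle of each chromosome's block (shaded). Grey points were not called, red points were called higher and blue points lower, and open blue circles mark the 4 members listed at 0 in each tcx5/6;cmt3-labelled library, whose height is set by the added 1. Both directions occur on all 5 chromosomes, and most members lie near 0.

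The structures of the genes that fell and of those that rose are given here without a test. The 26 lower members had a median exonic length of 1276 bases and a median of 3 exons (merged over transcripts), the 16 higher members 1894 bases and 6.5 exons, and the 331 not called 1691 bases and 5 exons. Exonic length and exon number were not used to choose the members, but signal was. The 14 lower members with a cmt3 mean under 200 had medians of 1046 bases and 2 exons. The 12 lower members with a cmt3 mean of 200 or more had medians of 1774 bases and 4 exons. Below the mean of 20 the genes numbered in the same stretches gave 0 rises and 9 falls among the 253 that could be tested, where other genes under 20 gave 20 rises and 19 falls among 3277.

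Falls were counted by how dense pseudogenes are around the gene, without a test. The share of pseudogenes among annotated loci within 100 kb of each member was taken as a measure of its surroundings that the definition did not use. It was 50% or more for 214 members, of which 20 (9.35%) were lower and 10 (4.67%) higher, and 16 of the 18 falls of 2-fold or more were among these. With a share of 25% to 50%, 5 of 81 members (6.17%) were lower and 2 (2.47%) higher. Under 25%, 1 of 78 was lower (1.28%; MSRB6) and 4 (5.13%) were higher. Of the 27 members outside the blocks 26 were in the class under 25% and 1 was in the middle class. Inside the blocks the lower calls were 20 of 214, 4 of 80 (5.0%) and 1 of 52 (1.92%) from the densest class down, and the higher calls 10, 2 and 3 (5.77%). Of members at 20 or more in both genotypes, 11 of 199 (5.53%), 3 of 73 (4.11%) and 1 of 67 (1.49%) were lower, and 9 (4.52%), 1 (1.37%) and 3 (4.48%) higher, so 9 of the 20 falls in the densest class were in members that averaged under 20 in the tcx5/6;cmt3-labelled libraries. These divisions were chosen after seeing the data. From the densest class down, other genes with a mean of 20 or more were lower in 7.14%, 5.0% and 2.44% of cases. Those classes held 56, 420 and 19281 other genes. Among the large falls AT2G06845 lay at a share of 82.2%, QQS at 83.0%, AT3G30770 at 81.8% and AT4G07526 at 90.7%. Others lay lower, AT5G28810 at 53.2%, AT2G06355 at 48.15% and AT2G13450, a larger fall than QQS, at 37.3%. The rises EHD2, at 47.5%, and CPK27, at 17.9%, also lay under 50%, but AT3G32920, at 86.5%, and AT5G33300, at 79.2%, did not.

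**Figure D4:**
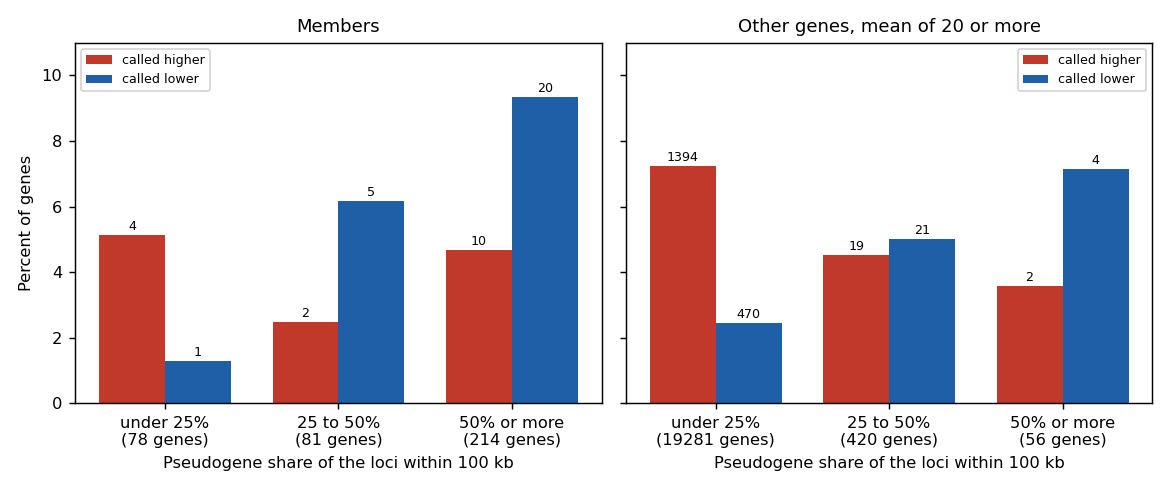
Percent of genes called higher (red) or lower (blue) in the tcx5/6;cmt3-labelled libraries by the share of pseudogenes among annotated loci within 100 kb, for members (left) and for other genes with a mean signal of 20 or more (right). The number over each bar counts the genes called, and the number of genes in each class stands under it. Lower calls make up 1.28%, 6.17% and 9.35% of members in the 3 classes.

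Groups by annotated function were small. For comparison with their counts, 6.15% of all genes tested were called higher and 2.32% lower. Of 18 members annotated as kinases 2 were higher (CPK31 and CPK27) and 2 lower (SERK4 and SERK5), with a median log2 fold change of -0.06. Of 12 members of the F-box and ubiquitin group 1 was higher, AT2G06040. UBQ11, a polyubiquitin gene, was at 22230 and 22095 against 16096 and 16294 and did not pass (log2 fold change -0.45; limma adjusted p = 0.0568). Of 6 members annotated with ribosome and translation words 1 was lower, AT3G42723, while the cytosolic RP1 and the plastid RPS1, both ribosomal proteins, had log2 fold changes of 0.10 and -0.08 and did not pass.

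Several groups gave no call. With 8.47% of all genes tested called, 0 calls in groups this small say little about them. Of 12 members matched by transcription factor words 0 passed, and the smallest adjusted p-values were those of BZO2H3 (log2 fold change 0.29; limma adjusted p = 0.143) and MYB74 (-0.70; 0.194). BZIP60 and OFP9 were not matched by those words. Of 10 transporters 0 passed, led by the amino acid transporter AT3G30390 at 11813 and 12543 against 10047 and 9610 (-0.31; limma adjusted p = 0.117). Of 3 members named for plastids or photosystems 0 passed. PSBX, a photosystem II subunit, was the highest member per kb of exon at a mean of 56084, with a log2 fold change of -0.09 and an SE of 0.17 (limma adjusted p = 0.853). The 3 nucleoside transporters of a cluster on chromosome 4 had 0 calls, with FUR1 at 166 and 202 against 319 and 291 (0.73; limma adjusted p = 0.0654). The 2 cysteine-rich receptor-like kinases CRK36 and CRK40 had log2 fold changes of 0.33 and -0.29 and did not pass.

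Of 35 members matched by product words for unknown proteins 4 were lower and 0 higher, with a median of -0.17. The words also matched named genes such as RAP2.6, RAP2.9 and LSH1, so the list is not one of unknown functions. Its falls AT2G12205, AT4G07526 and AT4G07995 reached a mean of 20 through cmt3 alone. Of 35 non-coding members 4 were lower and 1 higher, with a median of -0.27, where 24 of 268 other non-coding genes with a mean of 20 or more were lower and 10 higher, with a median of -0.16. Of the 27 genes numbered here with transposon words in their annotation only 2 reached a mean of 20. AT2G13450 was lower, and AT2G11035, annotated with a reverse transcriptase zinc-binding domain, was at 106 and 81.1 against 89.7 and 106 (log2 fold change 0.07; limma adjusted p = 0.928), with overlapping libraries. The insertion of mitochondrial DNA on chromosome 2 held 94 numbered genes and 2 members. One of them, AT2G07715, is copied over 100% of its length in the mitochondrial genome, and at 48.2 and 41.9 against 64.4 and 71.5 it did not pass (0.58; limma adjusted p = 0.363).

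Called members were mostly single. Of the 16 higher members 2 (12.5%) had a neighbouring expressed gene also called higher, against 18.3% of the other 1440 higher genes, and of the 26 lower members 5 (19.2%) had a neighbour also called lower, against 12.6% of the other 523. QQS was bordered by GDU6, 2539 bp away, at 32.8 and 26.2 against 21.8 and 26.4 (limma adjusted p = 0.782). AT3G30770 lies 351 bp from ERD5, which was at 3971 and 5408 against 3969 and 3869 (0.425). AT2G13450 lies 9 bp from AT2G13440, at 1788 and 1582 against 1470 and 1359 (0.206). The nearest expressed neighbour of each of these 3 large falls therefore did not pass.

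DREAM is known to bind promoters at a cell cycle homology element and at E2F sites, so the promoters of the members were searched for these words on both strands. The window ran from 250 bases before to 50 bases after the annotated gene start in TAIR10.1 (RefSeq). The first words were TTTGAA and TTCGAA, neither of which is contained in an E2F word, and 51.2% of the members, 8 of 16 higher and 14 of 26 lower, held 1 of them, against 48.4% of all promoters, 59.3% of those of all genes called higher and 44.8% of those called lower. The E2F words were TTTCCCGC, TTTCGCGC, TTTGCCGC and TTTGGCGC. Of the 373 members 5 (1.34%) held an E2F word, against 1.63% of all 32546 promoters, 7.83% of the promoters of all genes called higher and 0.364% of those called lower. Among the called members AT3G42660 was the one with such a word, and 0 of the 26 lower members had one. The sequences below show the 4 members whose word lies before the gene start, so that the called gene can be set beside the genes that did not pass. In FRS10, the fifth member, the word lies after the start. Capitals mark the E2F words.
AT3G42660 (chr3:14751171-14751218, plus strand): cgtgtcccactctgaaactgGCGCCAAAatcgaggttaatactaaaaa
CPK22 (chr4:2393113-2393164, minus strand): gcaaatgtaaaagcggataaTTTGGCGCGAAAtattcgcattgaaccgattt
RPS1 (chr5:11621416-11621463, minus strand): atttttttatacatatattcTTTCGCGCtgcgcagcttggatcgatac
ZIFL2 (chr3:15655290-15655318, plus strand): tcagaatcatttcagctttaTTTGGCGCc
In CPK22 the capitals are 2 overlapping words, 1 on each strand. Of these 4 genes AT3G42660 rose, CPK22 had a log2 fold change of 1.83 without passing, and RPS1 and ZIFL2 were at log2 fold changes of -0.08 and -0.16 and did not pass. A word is a match of letters and says nothing of binding.

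Some values rest on reads that gene-level counting may not place with certainty. A near-identical copy (95% identity or more) covers 50% or more of the gene body of 14 members, 4 of them called: AT2G13450, AT3G32030, OFP9 and AT4G04223. Another annotated gene on the opposite strand overlaps 82 members and one on the same strand 10 members, 8 called members among them, and without a known strand setting the reads of such pairs cannot be told apart. The summed signal of all members was 2.60% and 2.56% of the column total in cmt3 and 2.41% in each tcx5/6;cmt3-labelled library.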

How the data were processed

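The authors deposited 1 column of normalized signal for every library, with 1 value per gene. The submitters' processing notes name HISAT2, edgeR and the build TAIR10. Their versions and roles, the scaling, the annotation and how genes were counted, strand included, were not given in the sources used here. Values are fractional, and in no library were more than 33.1% of the low values whole multiples of 1 step (tolerance 0.1), so reads were not recovered, depth is unknown, and no count test or detection limit is given. A further 4 per-sample columns were not used.

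Values under 1e-10 were set to 0. Genes at 1 or more in 2 or more libraries were fitted on log2(signal + 1) with limma 3.58.1 in R 4.3.3, in a model of genotype alone that lets the variance follow the mean level. Benjamini-Hochberg adjustment ran over all genes tested, and calls needed an adjusted p under 0.05. A fold change on this scale understates the change of low genes, and none is given against libraries listed at 0.

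Symbols, products, positions and promoter sequences came from the TAIR10.1 RefSeq annotation, to which all 32548 identifiers matched. Copies were found with blastn 2.17.0 and tables made with pandas 2.3.3 in Python 3.11.15. Same-numbered libraries did not deviate together (correlation 0.0536 over members), and the model did not pair them. This correlation cannot show whether they were grown or prepared together, which the labels do not state. Genes were named by rule: the 12 largest rises and 12 largest falls, the called gene with the highest mean per chromosome and direction, QQS, and up to 2 genes per list with the smallest p. Other genes, among them the remaining called members, CPK21 to CPK23, RP1, RPS1, ZIFL2 and neighbours, were added to the text with their values known. The members, lists and tests were chosen with earlier results of these data known. Among the lists, pseudogenes had 0 members and the list of defence words 1, AT4G04960, which did not pass (log2 fold change -0.16). Alternatives varied the filter, pseudocount, scaling, threshold, trend, member definition, replicate block and libraries.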

Additional observations from a re-analysis of the deposited data

How the results depend on the processing

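With all 4 libraries the members gave 16 higher and 26 lower calls and a median log2 fold change of -0.06. A filter on low values at 5, no filter and a pseudocount of 0.1 moved these counts by less than 1.5 times. Median centring gave 14 higher and 29 lower calls with a median of -0.11, and quantile normalization 15 and 29 with -0.092. These scalings also moved the median of all tested genes, to -0.07 and -0.04. The fit without a mean-variance trend called 8 higher and 10 lower. An adjusted p of 0.01 left 8 and 14, and a 2-fold change in addition 6 and 18. A member mean of 5 or more gave 16 higher and 35 lower with a median of -0.073, and one of 50 or more gave 14 and 17. Leaving out 1 library with the filter set anew gave 6 to 39 higher, 16 to 63 lower and medians of -0.063 to -0.048. With the same genes tested, an alternative chosen after seeing the data, it gave 0 to 14 higher, 0 to 20 lower and medians of -0.063 to -0.06. A paired fit with the replicate block called 13 higher and 24 lower with a median of -0.06. Whether same-numbered libraries belong together is not stated in the labels. The blocks alone gave 15 and 25, the 6 left-out genes added 21 and 26, and all genes inside the blocks 20 and 26, all chosen after seeing the data.

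The 47 genes named by rule include genes that were not called with all 4 libraries. Of those that were called, 15 lost their call without the trend. Without either tcx5/6;cmt3-labelled library, with the same genes tested, the called genes kept their direction but not their call. The cause was not tested. In PSBX and AT2G11035, which were not called, the log2 fold change changed sign. PSBX was at 0.019 under quantile normalization, and between -0.219 and 0.048 with 1 library left out, positive without cmt3 replicate 1. AT2G11035 was at -0.002 under quantile normalization, and between -0.118 and 0.264 with 1 library left out, at -0.048 when that was tcx5/6;cmt3 replicate 2. No direction of a called member changed under the other scalings. Depth is unknown, so low values near 0 cannot be given a limit.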
